A study of Homo sapiens with 4 samples.

Results

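The genes described here are 10 membrane pumps of the ABCB, ABCC and ABCG subfamilies that are known for drug efflux, namely ABCB1, ABCB4, ABCC1, ABCC2, ABCC3, ABCC4, ABCC5, ABCC6, ABCC11 and ABCG2. They were taken by name, and every listed m7G peak that overlapped an exon of any of their transcripts by at least 1 bp on the strand of the gene was kept. This gave 25 peaks, 13 of the 8070 peaks listed for HL60 and 12 of the 8122 peaks listed for HL60/MX2. HL60 is an established promyelocytic acute myeloid leukemia line, labelled WT, and HL60/MX2 is the line labelled drug-resistant, known as a derivative of HL60 selected with mitoxantrone. The labels name no drug treatment of the cultures, and each line was measured as 1 m7G-enriched library made from poly(A) RNA that was decapped before it was fragmented and bound by the antibody. The input libraries and RNA levels were not analysed here, so a gene without a peak cannot be told apart from a gene with little RNA. With 1 library per line there was no replicate and no test between the lines. Neither list holds read counts, and the sequencing depth at each peak is therefore not known. The score of a peak is the deposited value, on a scale that is not stated, and it was read only within its own list, as the percent of that list's peaks with the same or a lower score.

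ABC transporters are membrane proteins that use ATP to move substrates across a membrane. A full transporter has a pair of membrane-spanning domains and a pair of nucleotide-binding domains, and ABCG2 has 1 of each and works as a dimer. Each nucleotide-binding domain carries a Walker A motif, which holds the phosphates of ATP, and an ABC signature motif, which contacts ATP bound by the partner domain. P-glycoprotein (ABCB1), MRP1 (ABCC1) and BCRP (ABCG2) are the pumps most often tied to multidrug resistance, and BCRP exports mitoxantrone. HL60/MX2 is known as a line of atypical multidrug resistance, with altered DNA topoisomerase II rather than raised P-glycoprotein.

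The peaks were spread over 8 of the 10 genes, of which ABCC1, ABCC2 and ABCC3 lie on the plus strand and the others on the minus strand of hg19. The 10 genes are a list taken by name and not a sample of genes, so the shares given here are descriptive. The list was chosen with earlier results of these data known. A share above that of all genes was therefore not read as a trait of the pumps. In HL60, 6 of 10 genes (60%) carried a peak, against 27.0% of all 20162 protein-coding genes. Among the 5758 genes whose merged exons were as long as those of the pumps (5602 to 11365 bp), 36.1% did. In HL60/MX2, 6 of 10 genes also carried a peak, against 29.5% of all genes and 38.4% of those of like exon length. A peak in both lists was present in 4 of the 10 genes (ABCB4, ABCC4, ABCC6 and ABCC11), against 12.3% of all genes and 17.7% of those of like length. ABCB1 and ABCC5 had peaks in HL60 only, and ABCC2 and ABCC3 in HL60/MX2 only. Across all protein-coding genes, the HL60 list reached 5441, the HL60/MX2 list reached 5943, and 2470 were shared. Most genes of either list were thus absent from the other, and peaks in 1 line only were not read as a trait of the pumps. ABCC1 and ABCG2 had no listed peak in either line.

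**Figure D1:**
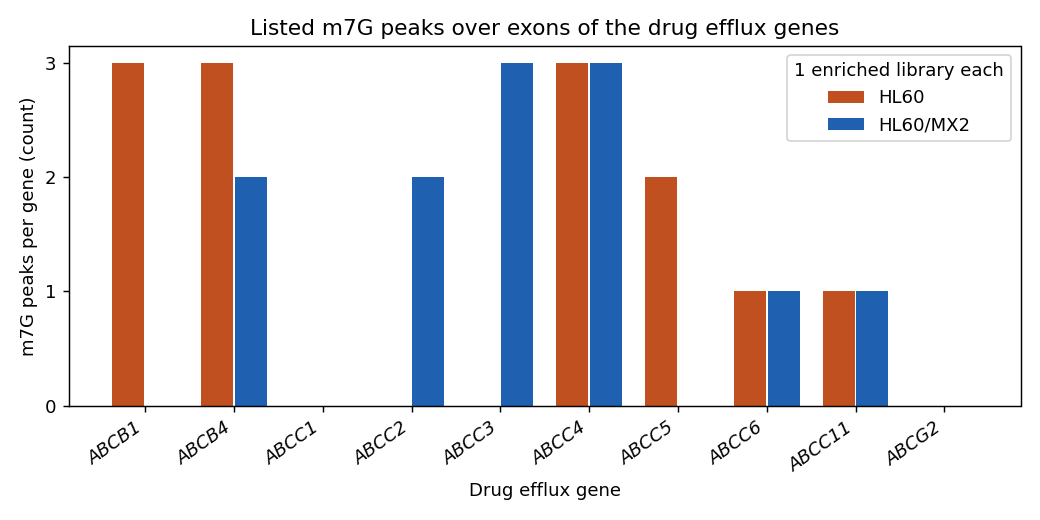
Number of listed m7G peaks over the exons of each drug efflux gene (vertical axis, count) in HL60 and HL60/MX2, 1 enriched library each. ABCB1 reaches 3 in HL60 and ABCC3 reaches 3 in HL60/MX2 with no peak in the other line, ABCC4 has 3 in each, and ABCC1 and ABCG2 have none.

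Within a line, the genes that carried a peak had from 1 to 3. ABCB1, ABCB4 and ABCC4 had 3 peaks in HL60, where 2.49% of all genes had at least 3. ABCC3 and ABCC4 had 3 in HL60/MX2, where 2.03% of all genes did. The share with at least 3 peaks was not counted among genes of like exon length, which carried a peak more often than all genes in both lists. In HL60, the ABCC4 count includes a peak of 4 bp. Per kb of merged exon, ABCB1 had the most in HL60 (0.467 peaks per kb), followed by ABCB4 (0.388) and ABCC4 (0.348). Without the exon 14 peak of ABCB1, which has an identical copy in ABCB4, ABCB1 had 0.311 and came after both. In HL60/MX2 the highest were ABCC4 (0.348) and ABCC3 (0.312), followed by ABCB4 (0.259) and ABCC2 (0.255). Each of these values rests on 2 or 3 peaks.

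Of the 13 peaks in HL60, 1 overlapped a peak of HL60/MX2, which it did in ABCB4, beside 6.13% of the whole HL60 list and 6.09% of the whole HL60/MX2 list. In ABCC4, ABCC6 and ABCC11 the peaks of the lines lay in different exons, and the nearest ones were 842, 194 and 2470 nt apart in the mRNA. The 29 bp HL60 peak lay wholly inside the HL60/MX2 peak, of which it made up 17.5%, and both began at the 5′ end of exon 9 of ABCB4, a canalicular flippase for phosphatidylcholine that is close to ABCB1 in sequence. The HL60/MX2 peak at chr7:87076356-87076521 (hg19, minus strand) is shown because it holds the overlap, with the bases that were also in the HL60 peak (chr7:87076493-87076521) in capitals.
ABCB4 exon 9, HL60/MX2: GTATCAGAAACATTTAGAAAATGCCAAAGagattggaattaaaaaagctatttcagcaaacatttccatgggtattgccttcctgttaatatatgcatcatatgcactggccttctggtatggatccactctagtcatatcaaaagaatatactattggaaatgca
The score was 607 in HL60, above or equal to 93.2% of its list, and 611 in HL60/MX2, above or equal to 83.7% of its list. Both peaks ranked in the upper part of their own lists.

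ABCB1, the gene of P-glycoprotein, which exports anthracyclines and many other hydrophobic drugs, lies on chromosome 7 of hg19 from 87132333 to 87342639 on the minus strand. Its 3 HL60 peaks were all coding and all low in score. The peak in exon 4 of 28, at chr7:87214828-87214909, had a score of 85.1 (percentile 16.7 of the list) and covered the codons of residues 69 to 96. The peak in exon 9, at chr7:87183077-87183149, had a score of 107 (percentile 24.4) and covered residues 309 to 333, and the peak in exon 14, at chr7:87178804-87178834, had a score of 101 (percentile 22.8) and covered residues 519 to 529, ending just before the signature motif that begins at residue 531. All 3 scores were below the HL60 median of 196.8. The peak in exon 14 is shown because its 31 bases occur without a mismatch in ABCB4, at chr7:87069123-87069153. Those bases alone do not tell the genes apart, and the sequence around them was not compared.
ABCB1 exon 14, HL60: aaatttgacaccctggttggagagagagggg
No ABCB1 peak was listed for HL60/MX2.

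Beside the shared peak, ABCB4 had 2 other coding peaks in HL60. They covered the whole of exon 8 (chr7:87079284-87079408, score 204, percentile 51.9) and the whole of exon 23 (chr7:87041209-87041349, score 214, percentile 53.9). The exon 8 peak ended at mRNA position 945 and the exon 9 peak began at position 946, so these peaks met at the splice junction. The other HL60/MX2 peak of ABCB4, at chr7:87108811-87109018 with a score of 559 (percentile 80.8), lay 3755 bp upstream of the first exon of the longest coding transcript. It fell in the noncoding part of the first exon of another coding transcript, which has 7 exons.

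ABCC2, the canalicular pump MRP2 for glutathione and glucuronide conjugates, had peaks in HL60/MX2 only. The peak in exon 18 of 32, at chr10:101578547-101578663, had a score of 636, the highest among the 12 HL60/MX2 peaks of these genes (percentile 85.0), and it covered residues 758 to 796 with all 15 bases of the signature motif of the first nucleotide-binding domain. The peak in exon 23, at chr10:101591745-101591888, had a score of 541 (percentile 79.4) and covered residues 1039 to 1086, between the nucleotide-binding domains. Both ranked above the HL60/MX2 median of 259.7.

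ABCC4 (MRP4), which exports cyclic nucleotides, prostaglandins and some nucleoside analogue drugs, had 3 peaks in each line and no overlap between them. In HL60, the peaks lay in exon 4 of 31 (chr13:95886864-95887082, score 183, residues 105 to 177), in exon 28 (chr13:95696520-95696523, score 131) and in the 3′UTR of exon 31 (chr13:95673198-95673459, score 171). The exon 28 peak was 4 bp long and the shortest of the 25. In HL60/MX2, the peaks lay in exon 11 (chr13:95838955-95839126, score 303, residues 458 to 515), in exon 12 (chr13:95830276-95830345, score 252, residues 516 to 539) and at chr13:95748053-95748303 (score 237). The peaks in exons 11 and 12 met at the splice junction, at mRNA positions 1682 and 1683, and together they ran from just after the first Walker A motif, which begins at residue 445, into the signature motif. The remaining HL60/MX2 peak lay in intron 20 of the longest coding transcript, over the last exon of 3 other transcripts and downstream of their coding sequence. Of the 6 ABCC4 peaks, 1 scored above the median of its list, that of exon 11 in HL60/MX2.

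ABCC5 (MRP5), a pump for cyclic nucleotides and nucleotide analogues, had peaks in HL60 only. The peak over the whole of exon 4 of 30, at chr3:183706360-183706515, had a score of 462 (percentile 86.6) and covered residues 96 to 148. The peak in exon 25, at chr3:183660515-183660590, had a score of 83.3, the lowest of the 25 by percentile (15.5), and it covered residues 1207 to 1232 with 16 of the 24 bases of the second Walker A motif.

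The Walker A and signature motifs were the ATP-site motifs searched for, and the 3 coding peaks that covered the start of either are shown with the bases of the motif in capitals, read on the strand of the gene.
ABCC2 exon 18, HL60/MX2, signature motif: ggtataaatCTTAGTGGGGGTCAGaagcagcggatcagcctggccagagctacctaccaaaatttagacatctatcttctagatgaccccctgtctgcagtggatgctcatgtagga
ABCC4 exon 12, HL60/MX2, signature motif: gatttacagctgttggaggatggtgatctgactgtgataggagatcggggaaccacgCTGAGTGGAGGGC
ABCC5 exon 25, HL60, Walker A motif: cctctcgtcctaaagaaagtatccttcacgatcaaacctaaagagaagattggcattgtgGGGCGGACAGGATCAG
The ABCC4 peak held 13 of the 15 bases of its motif. Both signature motifs belonged to the first nucleotide-binding domain and to HL60/MX2 peaks, and the Walker A motif belonged to the second domain and to an HL60 peak.

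ABCC3 (MRP3), a basolateral pump for bile salts and glucuronides, had 3 peaks in HL60/MX2 and none in HL60. Of these, 1 was coding and covered the whole of exon 8 of 31 (chr17:48738284-48738475, score 237, percentile 46.7, residues 269 to 333). The others lay in introns 1 and 8 of the longest coding transcript, over exons of short transcripts. The peak at chr17:48713148-48713276 (score 380, percentile 65.1) ended with the last exon of a 4-exon coding transcript, downstream of its coding sequence. The peak at chr17:48740521-48740861 (score 633, percentile 84.6) was the longest of the 25, with 341 bp, and began with the only exon of a transcript annotated as a retained intron.

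ABCC6, a liver pump that drives ATP release and is mutated in pseudoxanthoma elasticum, had 1 peak in each line, each over a whole exon. The HL60 peak covered exon 8 of 31 (chr16:16297267-16297470, score 200, percentile 50.8, residues 265 to 333), and the HL60/MX2 peak covered exon 5 (chr16:16308181-16308306, score 155, percentile 31.4, residues 159 to 200). Both sequences also occur in the pseudogene ABCC6P1 on the same chromosome, the HL60 peak at 98.5% identity (chr16:18602426-18602629) and the HL60/MX2 peak at 100% (chr16:18591532-18591657). The sequence around the peaks was not compared, and the gene behind them was not told apart from its copy. Among the 24 peaks of at least 25 bp, these peaks and the ABCB1 peak of exon 14 were the 3 found with a copy elsewhere in the genome at 90% identity or more over at least 80% of their length. The search also required a low BLAST e-value (the number of such matches expected at random), so an imperfect copy of a short peak could be missed. Leaving these 3 peaks out, which was chosen after seeing the data, left 5 genes with a peak in each line, 3 genes in both and 11 peaks in each line.

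ABCC11 (MRP8), known for the wet or dry type of earwax and for export of cyclic nucleotides, had 1 coding peak in each line, near the 5′ end of the mRNA in HL60/MX2 and at its middle in HL60. The HL60/MX2 peak lay in exon 3 of 30 (chr16:48264348-48264467, score 195, percentile 39.0, residues 39 to 79). The HL60 peak lay in exon 21 (chr16:48221298-48221338, score 225, percentile 56.9, residues 903 to 916) and was 41 bp long.

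ABCC1 (MRP1), which exports anthracyclines and glutathione conjugates, lies on chromosome 16 from 16042995 to 16237114 with 8736 bp of exon, and ABCG2 (BCRP), which exports mitoxantrone, lies on chromosome 4 from 89011302 to 89152780 with 5602 bp, the shortest of the 10. Neither list held a peak over their exons. ABCB1, ABCC1 and ABCG2 thus had no listed peak in the resistant line, like most protein-coding genes, of which 29.5% had one there.

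**Figure D2:**
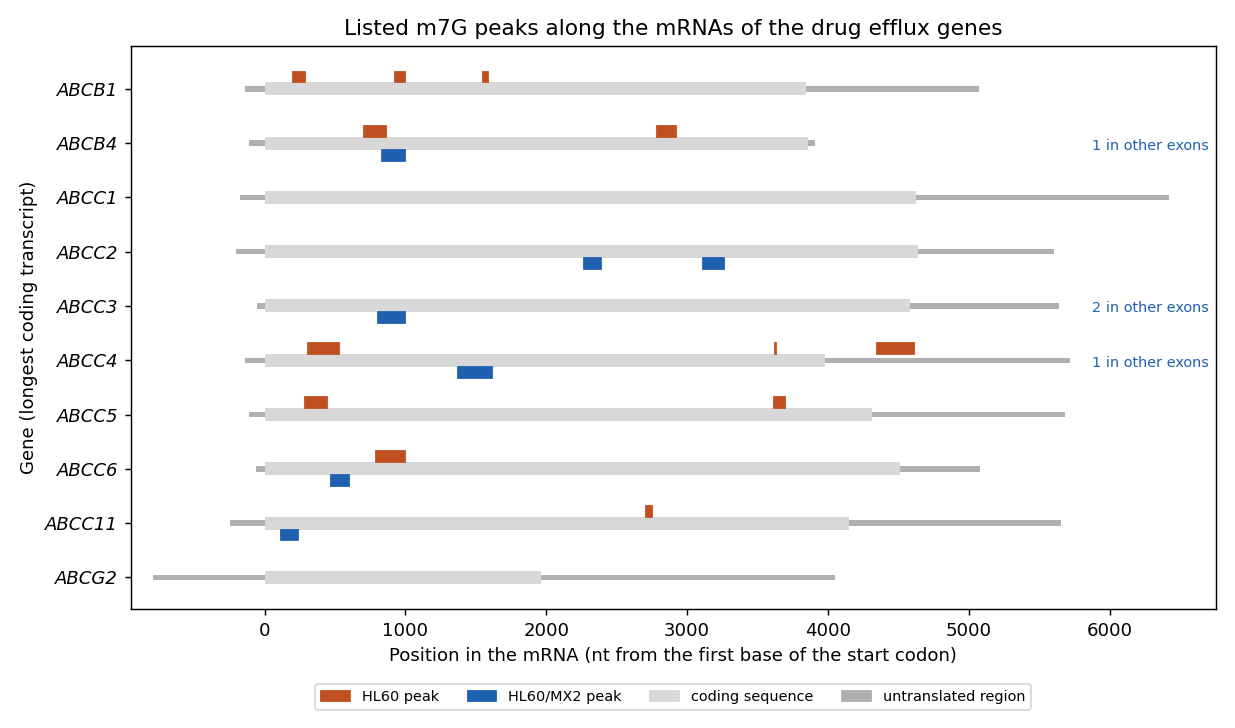
Position of the peaks along the longest coding transcript of each gene, in nt from the first base of the start codon (horizontal axis), with HL60 peaks above and HL60/MX2 peaks below each mRNA and 4 HL60/MX2 peaks that lay in other exons given as numbers at the right. Peaks that meet at a splice junction in ABCB4 (HL60) and ABCC4 (HL60/MX2) appear as 1 block, the ABCB4 peaks of the lines overlap, and 1 peak lies in a 3′UTR.

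By region, 12 of the 13 HL60 peaks were in the coding sequence and 1 was in a 3′UTR, where windows reaching 100 nt from a start or stop codon were held as separate classes. In the whole HL60 list, 63.8% of 6600 classed peaks were coding and 21.2% were in the 3′UTR. Of the 12 HL60/MX2 peaks, 8 were coding and the other 4 (1 in ABCB4, 2 in ABCC3 and 1 in ABCC4) lay over exons that the longest coding transcript does not have, and none of these 4 held a coding base. Of the 8 on that transcript, all were coding, where 59.7% of 6628 classed HL60/MX2 peaks were. The mRNAs of the pumps with a peak are themselves mostly coding, from 3975 of 5855 nt in ABCC4 to 3858 of 4020 nt in ABCB4. How many peaks would be coding by length alone was not estimated, so the coding counts were not read as a trait of the pumps. All HL60 peaks of these genes overlapped the longest coding transcript. In the whole lists, the share over protein-coding exons that did not was 14.7% for HL60 and 15.1% for HL60/MX2. No peak of these genes fell in a start or stop codon class in either line. In the whole HL60 list, 7.02% of the classed peaks were at the start codon and 4.58% at the stop codon. In the whole HL60/MX2 list these shares were 11.9% and 4.28%. With shares this small and only 13 and 8 peaks, the absence was not read as a difference.

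In HL60, 12 of the 13 peaks began or ended exactly at an end of an exon and 4 covered a whole exon, beside 69.8% and 26.1% of the 6600 classed peaks of the whole list. In HL60/MX2, all 8 peaks on the longest coding transcripts shared an exon end and 2 covered a whole exon, beside 69.9% and 24.9% of 6628. Sharing an exon end was thus common in both lists. The median length was 82 bp in HL60 (from 4 to 262 bp) and 155 bp in HL60/MX2 (from 70 to 341 bp), beside 129 and 133 bp in the whole lists.

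**Figure D3:**
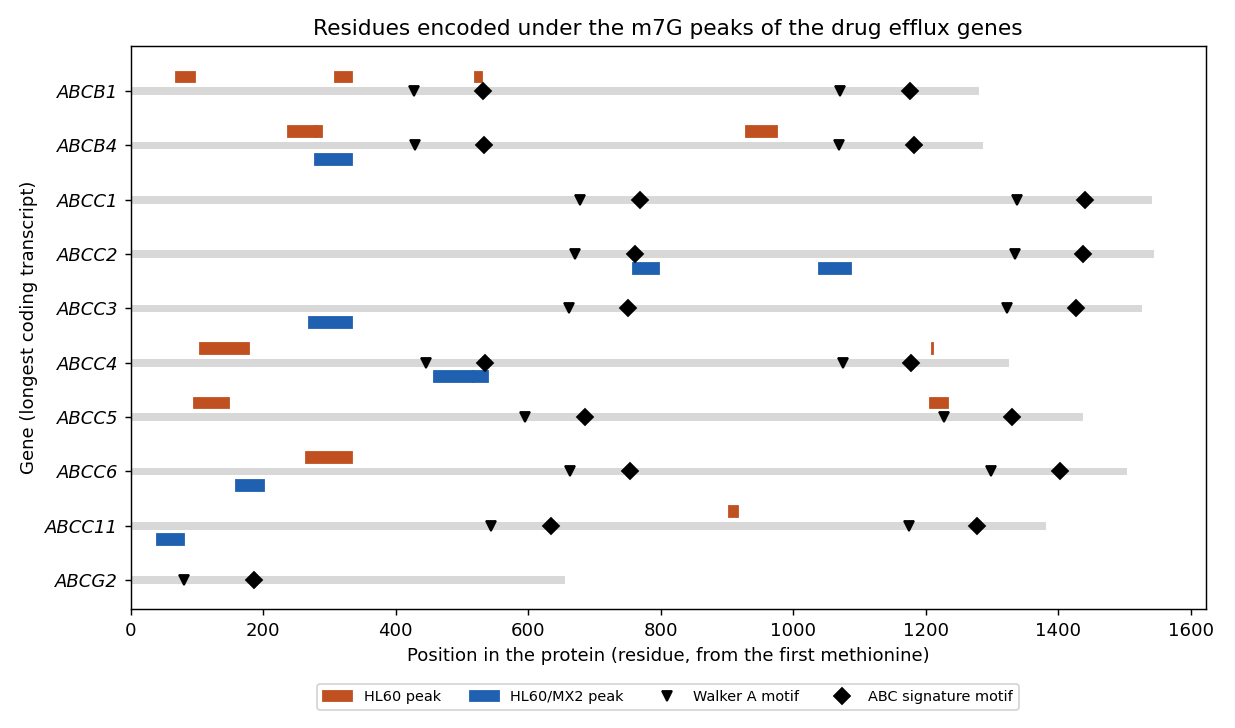
Residues encoded under the coding peaks of each gene (horizontal axis, residue number in the protein of the longest coding transcript), HL60 above and HL60/MX2 below, with the Walker A motifs as triangles and the ABC signature motifs as diamonds at their first residue. Before the first Walker A motif lie 7 of 12 coding peaks in HL60 and 4 of 8 in HL60/MX2. An HL60/MX2 peak of ABCC2, one of ABCC4 and an HL60 peak of ABCC5 reach a marked motif.

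By the midpoint of the encoded residues, 7 of the 12 coding peaks in HL60 and 4 of the 8 in HL60/MX2 lay before the first Walker A motif, a part that holds the first membrane-spanning domain. Between the first Walker A and the first signature motif lay 1 HL60 peak (ABCB1) and 2 HL60/MX2 peaks (both ABCC4). After the first signature motif and before the second Walker A motif lay 3 HL60 peaks (ABCB4, ABCC5 and ABCC11) and 2 HL60/MX2 peaks (both ABCC2). Past the second signature motif lay 1 HL60 peak, the 4 bp peak of ABCC4. A hydrophobic stretch, a mean Kyte-Doolittle hydropathy of at least 1.6 over 19 residues as in membrane helices, was met by 5 HL60 peaks and 4 HL60/MX2 peaks.

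The proteins were also aligned within the ABCB pair and within the ABCC genes, with identities from 32.7% (ABCC6 and ABCC11) to 77.1% (ABCB1 and ABCB4). Of 80 pairs of coding peaks of different genes, 9 shared at least 1 aligned residue, and the 3 described in detail were chosen after their values were seen. Among those left out, the HL60/MX2 peaks of ABCC6 and ABCC11 shared 39 aligned residues, 8 of them identical. An HL60/MX2 peak of ABCC2 and the HL60 peak of ABCC11 shared 14, with 8 identical. How many pairs would share a residue by position alone was not estimated. The exon 8 peak of ABCC3 in HL60/MX2 and the exon 8 peak of ABCC6 in HL60 shared 61 aligned residues, 28 of them identical. The exon 9 peak of ABCB1 in HL60 shared 23 aligned residues, 17 identical, with the exon 9 peak of ABCB4 in HL60/MX2. The HL60/MX2 peaks of ABCC2 and ABCC4 shared 8 aligned residues at the signature motif, 6 identical. The exon 8 and the ABCB1 exon 9 sequences are shown to let these positions be compared, in lower case throughout.
ABCC3 exon 8, HL60/MX2: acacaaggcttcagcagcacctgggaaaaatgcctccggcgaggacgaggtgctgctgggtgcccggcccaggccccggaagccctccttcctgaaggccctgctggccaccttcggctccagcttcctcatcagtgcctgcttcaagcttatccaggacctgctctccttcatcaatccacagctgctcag
ABCC6 exon 8, HL60: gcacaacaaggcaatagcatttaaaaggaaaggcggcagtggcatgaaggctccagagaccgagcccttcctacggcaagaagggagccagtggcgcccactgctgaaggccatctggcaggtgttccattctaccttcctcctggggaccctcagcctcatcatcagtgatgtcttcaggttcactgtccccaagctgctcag
ABCB1 exon 9, HL60: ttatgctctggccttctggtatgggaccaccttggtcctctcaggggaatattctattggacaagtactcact
The ABCB4 sequence that pairs with the ABCB1 peak is the one given above for the shared peak.

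The scores of the HL60 peaks ran from 83.3 to 607 with a median of 183, below the median of the HL60 list (196.8), and 6 of 13 were at or above that median. The scores of the HL60/MX2 peaks ran from 155 to 636 with a median of 342, above the median of their list (259.7), and 7 of 12 were at or above it. As percentiles of their own lists, the medians were 46.6 (HL60) and 60.5 (HL60/MX2). Among peaks at or above the median of their list, ABCB4, ABCC5, ABCC6 and ABCC11 kept a peak in HL60 and ABCB4, ABCC2, ABCC3 and ABCC4 in HL60/MX2, so that ABCB4 was the only gene with a peak in both. ABCB1 had none left.

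**Figure D4:**
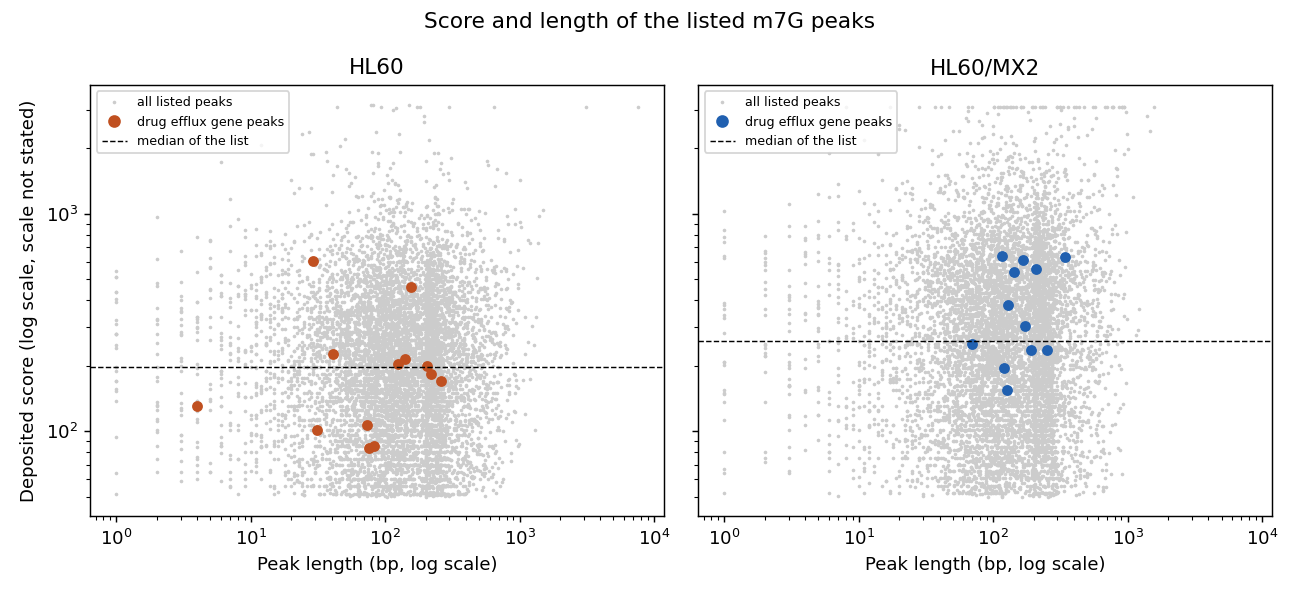
Score (vertical axis, log scale, deposited value) against length (horizontal axis, bp, log scale) of every listed peak in grey and of the drug efflux gene peaks in color, for each line, with the median score of the list as a dashed line. In HL60, 7 of 13 colored points lie below the line and in HL60/MX2 5 of 12 do, and the colored points lie within the range of the grey ones.

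The remaining 18 genes of the ABCB, ABCC and ABCG subfamilies served for comparison. A peak was listed for 6 of them in HL60 and for 6 in HL60/MX2, with 3 in both (ABCB5, ABCC9 and CFTR). These counts were near the shares over all protein-coding genes, which were 27.0% in HL60, 29.5% in HL60/MX2 and 12.3% in both. TAP2, ABCC8 and ABCC12 had a peak in HL60 only, and ABCB8, ABCB11 and ABCG5 in HL60/MX2 only. None of their 10 HL60 peaks overlapped any of their 10 HL60/MX2 peaks, where 6.13% and 6.09% of the whole lists overlapped. The highest scores were 800 for ABCC12 in HL60 (percentile 97.0) and 1262 for ABCC9 in HL60/MX2 (percentile 96.6).

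Among 12 regulators and membrane partners of the pumps, 4 had a peak in both lists, namely NR1I2 (the pregnane X receptor, which induces ABCB1), AHR (a ligand-activated transcription factor), RDX (radixin, which anchors membrane proteins to actin) and PDZK1 (a scaffold for membrane transporters). YBX1 and EZR had peaks in HL60/MX2 only. The 4 genes in HL60 and the 6 in HL60/MX2 stand beside the all-gene shares of 27.0% and 29.5%, and the 4 in both beside 12.3%, and lists this short were not read as different from them. The AHR peaks overlapped, in exon 2 at chr7:17349560-17349667 in HL60 and chr7:17349602-17349747 in HL60/MX2. PDZK1 had the highest score among them, 2123 in HL60/MX2 (percentile 98.8). Of 7 genes tied to glutathione, 0 had a peak in HL60 and 2 (GCLC and GSS) in HL60/MX2, beside the same 27.0% and 29.5% of all genes. Of the topoisomerase II genes, the targets of mitoxantrone, TOP2A had no peak and TOP2B had 1 in HL60/MX2, in exon 26 of 36 with a score of 1192 (percentile 95.9). These genes too stand beside 27.0% and 29.5% of all genes, and no difference between the lines was read from so short a list.

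Of 10 genes known as markers of HL60 or of myeloid cells, CTSG had a peak in HL60, CD33 and ITGAM had one in HL60/MX2, and MPO, ELANE, AZU1, PRTN3, CEBPE, CEBPA and SPI1 had none, beside the all-gene shares of 27.0% (HL60) and 29.5% (HL60/MX2). A peak is not a level of expression, so the cell type could not be checked with these lists.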

How the data were processed

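For HL60 and for HL60/MX2 cells, m7G-enriched RNA and its input were sequenced, and the 2 peak lists made from the enriched RNA were read here. Per the labels and the study's methods, the authors used Cutadapt 1.9.3 for trimming, aligned the read pairs to hg19 with HISAT2 2.0.4, called peaks with MACS and differential sites with diffReps, and chose those over protein-coding exons. The lists are therefore a filtered set of peaks. The version and settings of MACS are not given in the sources used here. Each deposited list has 6 columns with position, name, score and strand, and the score that the authors deposited has no stated scale. The labels also name STAR, without a version.

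Starts were changed to count from 1. Genes were those of GENCODE release 44 placed on hg19. Chromosome 1 of the genome used here was 249250621 bp long, which says nothing of the build of the peaks. On all 24 chromosomes with a peak, every peak ended inside the chromosome, which alone does not settle their build. That the peaks are on hg19 is taken from the authors. Exon numbers, regions and residues are those of the transcript with the longest coding sequence, and the 21 peaks on it had the same exon number and region on the MANE transcript. RefSeq proteins were not used here, so motif positions were found by pattern in the translated coding sequence and no residues are printed. A signature motif was taken only 50 to 180 residues after a Walker A motif. Copies were searched with BLAST 2.17.0 and proteins aligned with Biopython 1.88 (BLOSUM62), under Python 3.11.15. Sequences were read from hg19. No test was made, since each line has 1 library. All peaks were named for the 10 genes, and of the comparison lists the genes with a peak. The genes and lists were chosen with earlier results of these data known. The steps were tested on simulated peaks. Alternatives were tried for the score, exon overlap, peak length, strand, assignment, transcripts, the overlap that counts as shared and the region classes.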

Additional observations from a re-analysis of the deposited data

How the results depend on the processing

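Of 65 alternative counts, 58 lay within 1.5 times the reported count. Keeping peaks at or above the median score of their list left 6 peaks in HL60 (all 6 coding) and 7 in HL60/MX2 (4 coding), with 1 gene in both lists. The single overlap between the lines, in ABCB4, was not kept with peaks of at least 50 bp or with an overlap of at least 50% of both peaks (0 shared peaks in each case), and was kept with peaks up to 100 bp apart (1). Ignoring strand or assigning each peak to the gene of its largest overlap changed none of the counts for the 10 genes. With exons of the longest coding transcript only, the HL60/MX2 peaks numbered 8. No paired analysis was possible because each cell line has 1 enriched library. The depth behind each peak is unknown, and a gene without a listed peak is not shown to lack m7G.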
